A study of Mus musculus with 6 samples.

Results

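The oxidative phosphorylation system was described through 100 of the 32285 features of the count tables. For nuclear subunits of complexes I to V these were the numbered Nduf symbols and the Sdh, Uqcr, Cox and Atp5 symbols. Cytochrome c (Cycs), cytochrome c1 (Cyc1) and the 13 protein-coding genes of the mitochondrial genome were added. Subunits with other symbols, such as Ndufab1 of complex I, were not taken, so sums by complex are not of every subunit. They were taken by symbol alone, without regard to their levels. Of the 87 nuclear genes, 85 were summed by complex, with 35 genes for complex I, 4 for complex II, 9 for complex III, 19 for complex IV and 17 for complex V, and Cycs as the mobile carrier. Ndufa4 and Ndufa4l2 were counted with complex IV, in which the NDUFA4 protein resides. Ndufb1-ps, which carries a pseudogene symbol, and Cox7a2l, an assembly factor of supercomplexes, were kept out of the sums. The mitochondrial genes gave 7 subunits of complex I, 1 of complex III, 3 of complex IV and 2 of complex V.

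Cells came from the small intestinal mucosa of 3 control littermates (HuR fl/fl without Cre) and 3 IE-HuR-/- mice (HuR fl/fl with villin-Cre), all on the C57BL/6 background, with 1 droplet-based library per animal. The villin promoter drives Cre in the intestinal epithelium, so T or NK cells of the same libraries are not its target. Both groups carry the floxed Elavl1 alleles, and HuR is the RNA-binding protein that Elavl1 encodes. Each captured molecule carries a unique molecular identifier (UMI), and the deposited values are raw UMI counts per gene and barcode.

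The respiratory chain passes electrons from complex I (NADH dehydrogenase) and complex II (succinate dehydrogenase, also an enzyme of the citric acid cycle) through complex III and cytochrome c to complex IV (cytochrome c oxidase), and complex V uses the proton gradient to make ATP. The core of complexes I, III, IV and V mixes subunits translated inside mitochondria with subunits imported from the cytosol, whereas complex II is entirely nuclear. Absorptive enterocytes are rich in mitochondria, and several complex IV and complex V subunits exist as paralogous forms used by different tissues.

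Libraries held between 59518012 and 91818560 UMIs over 60706 barcodes, of which 60431 with at least 200 genes were kept. Cells were gated by marker genes into enterocyte-like (17947 cells), goblet-like (1406), tuft-like (222), enteroendocrine-like (334), progenitor-like (318), T or NK-like (6124) and smaller classes, and 31692 barcodes passed no gate. The labels name the tissue as small intestinal epithelium, and the blood and immune classes show that other mucosal cells were captured too. Between 22 and 44 barcodes were shared by any pair of libraries. Enterocyte marker UMIs, which free RNA can carry into other cells, were 9.17% to 10.0% of nuclear UMIs in enterocyte-like cells and 0.654% to 1.66% in T or NK-like cells, with control library 2 the highest. In the control libraries they were 5.37%, 5.74% and 6.70% in tuft-like and 3.68%, 3.76% and 4.01% in enteroendocrine-like cells. Their part in the values of these classes was not tested. Elavl1 had 26.2, 28.0 and 25.9 CPM (UMIs per 1000000 of the TMM-scaled library total) in enterocyte-like cells of the control libraries and 30.9, 31.3 and 31.7 in those labelled IE-HuR-/-. It was therefore not lower under the knockout label, and directions given for these libraries rest on their labels.

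Of the 87 nuclear members, 68 matched a promoter window of RefSeq (GRCm38.p6, 250 bases before to 50 after a transcript start, 73 windows in all), and the windows were searched on both strands for 4 short motifs of factors known to act at nuclear genes of mitochondria. The core of the nuclear respiratory factor 1 (NRF1) motif, GCGCATGC, stood in 15.1% of the members' windows and in 2.71% of all 32851 windows. The YY1 motif AAGATGGC stood in 12.3% and 2.75%, the estrogen-related receptor alpha motif TCAAGGTC in 4.11% and 1.05%, and the ETS or GABP motif CCGGAAGT in 6.85% and 3.89%. At least 1 of the 4 was present in 27 of the 73 windows. The stretches of 5 members on which the comparisons turn are given 5′ to 3′ with motif matches in capitals. Starts are those of RefSeq transcripts, which for Cycs, Atp5g2 and Ndufs7 differ from the outer end of the gene in the GENCODE annotation. Cycs (chr6:50566540-50566689, minus strand), Atp5g2 (chr15:102671018-102671167, minus strand), Ndufs8 (chr19:3912745-3912894, minus strand) and Cox6b2 (chr7:4753065-4753214, minus strand) run from 120 bases before to 30 bases after the start, and Ndufs7 (chr10:80249451-80249480, plus strand) is limited to bases 3 to 32 of the transcript.
Cycs: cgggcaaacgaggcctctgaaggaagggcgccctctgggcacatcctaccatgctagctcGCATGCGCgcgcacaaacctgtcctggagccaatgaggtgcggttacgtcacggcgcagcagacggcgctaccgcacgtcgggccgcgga
Atp5g2: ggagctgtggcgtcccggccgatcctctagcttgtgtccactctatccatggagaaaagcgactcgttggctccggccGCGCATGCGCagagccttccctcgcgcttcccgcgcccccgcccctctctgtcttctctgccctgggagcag
Ndufs8: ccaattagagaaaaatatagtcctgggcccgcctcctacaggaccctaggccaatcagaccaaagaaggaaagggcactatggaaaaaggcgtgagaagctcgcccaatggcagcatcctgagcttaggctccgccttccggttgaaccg
Cox6b2: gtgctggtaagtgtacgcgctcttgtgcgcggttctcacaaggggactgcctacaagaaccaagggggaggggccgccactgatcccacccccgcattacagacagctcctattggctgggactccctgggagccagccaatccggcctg
Ndufs7: aggttgtctgaaggccgaggccAAGATGGC
Cycs held an NRF1 core, Atp5g2 held it on both strands as overlapping matches, and Ndufs7 held a YY1 match just downstream of the RefSeq start. The windows of Ndufs8 and Cox6b2 held none of the 4, which says only that these letters were not found there. A match is a description of the sequence and was not tested as a binding site.

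Respiratory chain RNA differed between cell classes in amount and, by genome, in balance. In the control libraries, the 13 mitochondrial genes took 15.7%, 16.4% and 16.4% of all UMIs in enterocyte-like cells but 3.99%, 4.64% and 3.59% in T or NK-like cells, and the other 4 epithelial classes that were tested lay between (mean 10.3% in goblet-like, 10.2% in enteroendocrine-like, 12.2% in tuft-like and 9.63% in progenitor-like cells). Paneth-like cells, too few for a test at 11 to 13 cells per control library, had 2.20%, 3.49% and 2.01%. These pooled shares weight deep barcodes, as control library 3 held 305747 Paneth-like UMIs at a median of 733 per barcode. The median share per barcode was 3.25%, 3.67% and 5.36%, against 2.84%, 2.96% and 2.96% in T or NK-like cells. Paneth markers took 23.5%, 47.4% and 59.2% of nuclear UMIs, so no rank of Paneth-like cells is given. The 85 nuclear genes did not follow that order. Their sum, in UMIs per 1000000 UMIs of nuclear genes (nuclear CPM), was 31775, 33867 and 34177 in enterocyte-like cells, overlapping in tuft-like cells (37386, 31812 and 39870), and above these in every progenitor-like library (47193, 42247 and 58830). It was 18881, 18173 and 22081 in goblet-like, 18584, 21497 and 19495 in enteroendocrine-like, and 19473, 21563 and 20753 in T or NK-like cells. The share of progenitor-like control library 3 rests on 20 cells, in which goblet markers reached 1.43% of nuclear UMIs against 0.0916% and 0.203% in the other control libraries.

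The ratio of mitochondrial to nuclear subunit UMIs, which needs no scaling between cells, separated the classes into higher and lower groups. Enterocyte-like cells had 5.86, 5.81 and 5.72 mitochondrial UMIs per nuclear subunit UMI, goblet-like cells 5.73, 6.71 and 5.15, and enteroendocrine-like cells 5.21, 6.48 and 5.50, so that these classes overlapped. Tuft-like cells had 3.75, 4.38 and 3.48, progenitor-like cells 2.24, 2.84 and 1.60, and T or NK-like cells 2.13, 2.26 and 1.80, all below every enterocyte-like value. Progenitor-like cells thus joined the highest nuclear sum to a ratio that overlapped that of T or NK-like cells. The enterocyte-like values pool barcodes of unlike mitochondrial share. With at most 25% mitochondrial UMIs per barcode their control ratio was 3.84, within the range that tuft-like cells had without this limit. Enterocyte-like barcodes below 2% had nuclear sums of 63473, 64583 and 69265 nuclear CPM in control libraries, above every progenitor-like value. No contrast of classes was tested under such a limit. These sums and ratios describe 3 libraries per group and were not tested. Tuft-like control libraries held 5.37% to 6.70% enterocyte markers, and the part of these in the tuft-like values was not tested either.

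**Figure D1:**
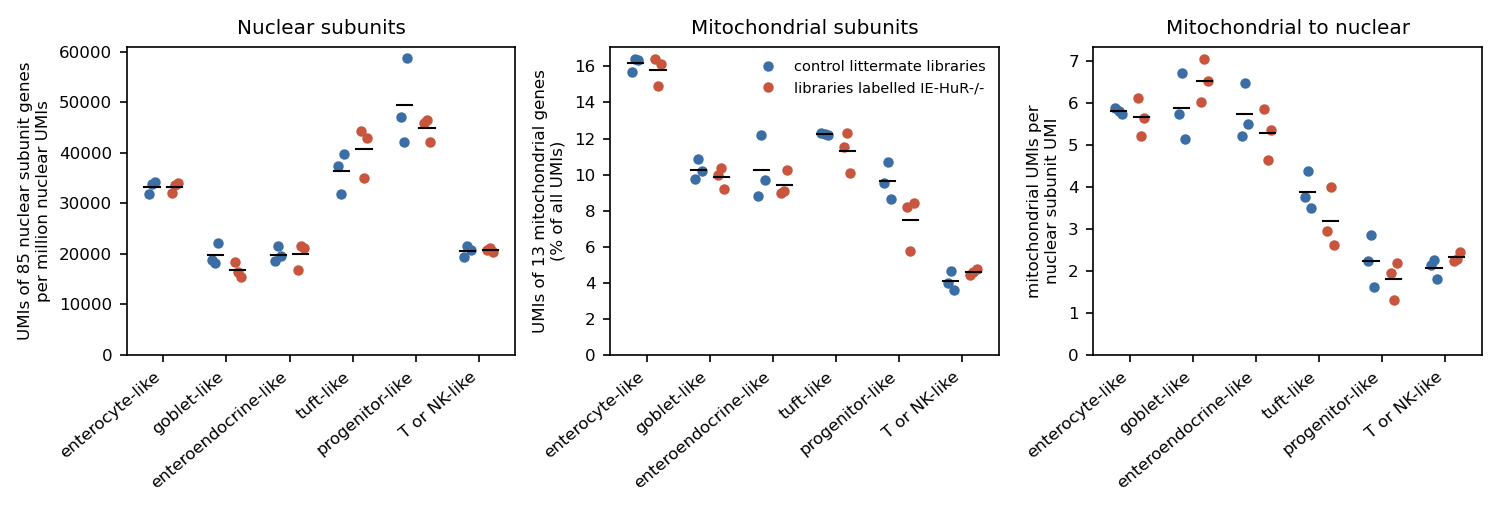
Nuclear CPM of the 85 summed nuclear genes (left), share of all UMIs from the 13 mitochondrial genes in percent (middle) and mitochondrial UMIs per nuclear subunit UMI (right), by class, with 1 point per library and bars at the mean of 3. The nuclear sum is highest in progenitor-like cells (control mean 49424) while the mitochondrial to nuclear ratio there and in T or NK-like cells (control means 2.23 and 2.06) is below that of the other 4 tested classes (5.80 in enterocyte-like cells).

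The same contrast was tested gene by gene in the control libraries, each class against enterocyte-like cells, with the library as a block (edgeR's quasi-likelihood test, Benjamini-Hochberg adjusted p under 0.05 over 12418 genes). Values depended on scaling, since TMM and library totals placed the median of all genes apart (−0.43 against 0.29 on the log2 scale for tuft-like, −0.17 against 0.74 for progenitor-like and −0.10 against 0.75 for T or NK-like cells), so medians are also given relative to all genes. TMM-scaled CPM were set within each fit, so those of enterocyte-like cells in this contrast of classes stand on another scale than those in the contrasts of labels. All 13 mitochondrial genes were lower in each of the 5 classes. Their median log2 difference relative to all genes was −0.52 in goblet-like, −0.71 in tuft-like, −1.27 in enteroendocrine-like, −1.53 in progenitor-like and −2.79 in T or NK-like cells. With library totals in place of TMM the genes called lower were 13, 9, 13, 11 and 13. The shares of all genes lower were then 18.6%, 7.63%, 14.95%, 19.97% and 27.8%, in the same order of classes.

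Of 81 nuclear members tested, 80 were lower and 0 higher in goblet-like cells, where 34.9% of all genes were lower and 10.1% higher, with a median of −0.53 relative to all genes. In enteroendocrine-like cells all 81 were lower (41.6% of all genes lower, 26.1% higher; median −1.19 relative to all genes). In T or NK-like cells 76 were lower and 2 higher (42.8% and 39.5% of all genes; median −1.25). In tuft-like cells 60 were lower and 0 higher with TMM (37.4% and 15% of all genes), against 2 lower and 23 higher with library totals (7.63% and 31.0% of all genes). No direction can therefore be given for the nuclear set there, and the median lay −0.10 from that of all genes. In progenitor-like cells 29 were lower and 14 higher with TMM (36.9% and 31.9% of all genes), against 3 lower and 67 higher with library totals (19.97% and 48.5% of all genes), with a median −0.01 from that of all genes. The difference of the nuclear set between progenitor-like and enterocyte-like cells therefore lay at the median difference of all genes. That of the mitochondrial set lay below it, and the choice of scaling cannot change either position.

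Several named nuclear members lay far from the median of the nuclear set, in either direction. Atp5g2, which encodes the same c ring subunit of complex V as Atp5g1 and Atp5g3, had 182, 195 and 184 TMM-scaled CPM in enterocyte-like cells against 617, 465 and 734 in progenitor-like and 274, 291 and 292 in T or NK-like cells. Its log2 difference was 1.67 (SE 0.144, edgeR adjusted p = 5.22e-10) and 0.61 (SE 0.138, edgeR adjusted p = 0.000318), respectively. Cox7a2l was the other member higher in T or NK-like cells, at 248, 225 and 258 against 169, 167 and 168 CPM (log2 difference 0.53, SE 0.133, edgeR adjusted p = 0.000809). Ndufs8, an iron-sulfur subunit of complex I, had 182, 175 and 251 CPM in progenitor-like and 93.9, 98.1 and 100 CPM in enterocyte-like cells (log2 difference 1.06, SE 0.124, edgeR adjusted p = 7.64e-08). Cycs went the other way, with 985, 1004 and 1038 CPM in enterocyte-like cells, 223, 271 and 313 in progenitor-like cells and 122, 179 and 131 in T or NK-like cells, log2 differences of −1.91 and −2.82 that stayed at −0.98 and −1.95 with library totals. Cox7a1, a complex IV form best known from heart and skeletal muscle, was the nuclear member with the largest fall from enterocyte-like cells in progenitor-like (−2.99) and T or NK-like cells (−3.92), and also fell in goblet-like (−1.27) and tuft-like cells (−1.35).

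The make-up of the nuclear sum by complex differed between classes. T or NK-like, tuft-like and enteroendocrine-like cells were each apart from enterocyte-like cells for every complex and for Cycs. Goblet-like cells were apart for all but Cycs, and progenitor-like cells for all but complexes IV and V. The control mean of the share, T or NK-like over enterocyte-like, was 1.26 for complex I, 0.662 for complex II and 0.364 for Cycs. It was 0.867 for complex III, 0.965 for complex IV and 0.979 for complex V. In T or NK-like cells of the control libraries complex I took 27.8%, 26.8% and 28.0% of nuclear subunit UMIs against 21.7%, 22.0% and 21.8% in enterocyte-like cells, and Cycs 0.774%, 1.02% and 0.797% against 2.41%, 2.33% and 2.39%. Complex II, the citric acid cycle member, took 1.90%, 2.02% and 1.85% in T or NK-like and 2.97%, 2.81% and 2.93% in enterocyte-like cells, and was below every enterocyte-like value in tuft-like (2.26%, 2.08% and 2.15%) and progenitor-like cells (2.07%, 2.39% and 2.04%) too. The same held by a smaller margin in goblet-like and enteroendocrine-like cells, with control means of 0.924 and 0.841 relative to enterocyte-like cells. Complex V was the largest share in all 6 tested classes, with control means between 31.0% in tuft-like and 34.2% in enteroendocrine-like cells. Among mitochondrial UMIs, complex IV genes (mt-Co1, mt-Co2 and mt-Co3) took 46.9%, 47.6% and 45.4% in progenitor-like cells and 52.5%, 52.9% and 52.2% in enterocyte-like cells. Because counts are of transcript ends, a share counts molecules of the summed genes of a complex and not complexes.

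Alternative forms of a subunit were compared as a share of the UMIs of their family. Cox6a2, the muscle form of subunit VIa, gave 82.7%, 87.8% and 83.6% of Cox6a UMIs in plasmacytoid dendritic-like cells of the control libraries and 90.4%, 82.7% and 88.5% in those labelled IE-HuR-/-. In enterocyte-like cells it gave no more than 0.0690% in any library. The plasmacytoid dendritic-like class held 121 cells and 1532 Cox6a UMIs, and Cox6a2 lies opposite in strand to Itgad, so reads of both could be confused if strand was not used in counting. Atp5g2 gave 10.3%, 10.7% and 9.91% of c ring UMIs in enterocyte-like, 30.2%, 28.1% and 29.5% in progenitor-like, 37.2%, 34.1% and 38.5% in T or NK-like and 47.6%, 43.5% and 52.1% in plasmacytoid dendritic-like cells. Cox7a1 gave 27.1%, 27.4% and 26.9% of the Cox7a1 and Cox7a2 UMIs in enterocyte-like cells and 6.02%, 8.85% and 3.73% in T or NK-like cells, where control library 2 again had the highest value and the highest share of enterocyte markers (1.66%). Whether free enterocyte RNA contributes to the T or NK-like value was not tested.

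Other tissue forms were nearly or wholly absent. Cox7b2 and Cox8b had no UMI in any cell, Cox8c had 1, Cox4i2 had 3 and Ndufa4l2 had 14. In enterocyte-like cells Cox4i2 had 0 UMIs in all 6 libraries, which allows a level of up to 0.0122 nuclear CPM, counting error only.

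**Figure D2:**
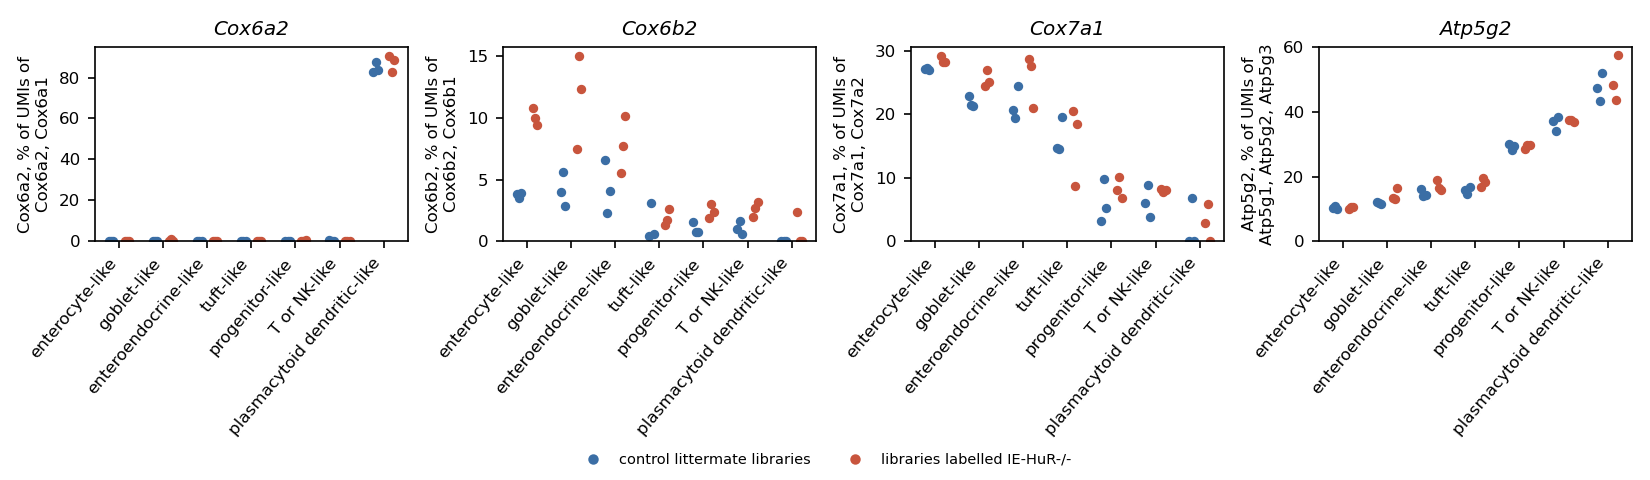
Share of family UMIs in percent from 4 alternative subunit genes (Cox6a2, Cox6b2, Cox7a1 and Atp5g2), with 1 point per library, blue for control littermates and red for libraries labelled IE-HuR-/-. Cox6a2 is above 80% in plasmacytoid dendritic-like cells alone among the 7 classes drawn, Cox6b2 in enterocyte-like cells is 3.51% to 3.93% in control libraries and 9.44% to 10.8% in the others, and the Atp5g2 share is lowest in enterocyte-like cells.

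Between labels, the total of the respiratory chain RNA in enterocyte-like cells overlapped. The nuclear sum was 31775, 33867 and 34177 nuclear CPM in control libraries and 32134, 33703 and 34118 in those labelled IE-HuR-/-, the mitochondrial share 15.7%, 16.4% and 16.4% against 16.4%, 14.9% and 16.1%, and the mitochondrial to nuclear ratio 5.86, 5.81 and 5.72 against 6.11, 5.21 and 5.63. The composition by complex did not overlap for 4 of the 6 parts. These parts are shares of the same total and so depend on each other, and Cycs is a single gene. How often shares of other genes separate the labels was not counted, so no excess can be read from this count. In edgeR's test 30.4% of all genes rose and 30.6% fell in these cells. Complex I took 21.7%, 22.0% and 21.8% of nuclear subunit UMIs in control libraries and 20.4% in each library labelled IE-HuR-/-, and complex III 11.6%, 11.5% and 11.5% against 11.2%, 11.3% and 11.3%. Complex V took 33.1%, 32.8% and 33.0% against 34.1%, 33.6% and 33.8%, and Cycs 2.41%, 2.33% and 2.39% against 3.00%, 3.12% and 3.05%. The shares of complexes II and IV overlapped. In goblet-like cells complex I was again lower, at 23.1%, 23.8% and 23.2% against 22.4%, 21.8% and 22.7%, and Cycs higher, at 2.35%, 2.26% and 2.08% against 2.80%, 3.05% and 2.80%. Complex IV was there 27.9%, 27.7% and 28.2% against 29.1%, 28.9% and 29.1%, and complexes II, III and V overlapped.

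In enterocyte-like cells, 60 of 82 nuclear members tested rose and 5 fell under the IE-HuR-/- label with TMM scaling, where 30.4% of all 12477 genes rose and 30.6% fell. The direction of the set depended on scaling, because the 2 scalings placed the median of all genes at −0.01 and −0.20. With library totals 15 members were called higher and 20 lower, where 15.7% of all genes were higher and 50.2% lower. Relative to the median of all genes the nuclear set lay 0.18 higher on the log2 scale, and 73 of its 82 members were above that median. The scalings shift all genes alike, so this difference could not change between them. The subunits of complex V (17 of 17 rose, log2 change 0.13 to 0.35) and complex IV (11 of 14 rose, 2 fell) led with medians of 0.24 and 0.27 relative to all genes. Complex III (8 of 9 rose) and complex II (4 of 4) lay at 0.17 each, and complex I, with 18 of 35 risen and 2 fallen, at 0.12.

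**Figure D3:**
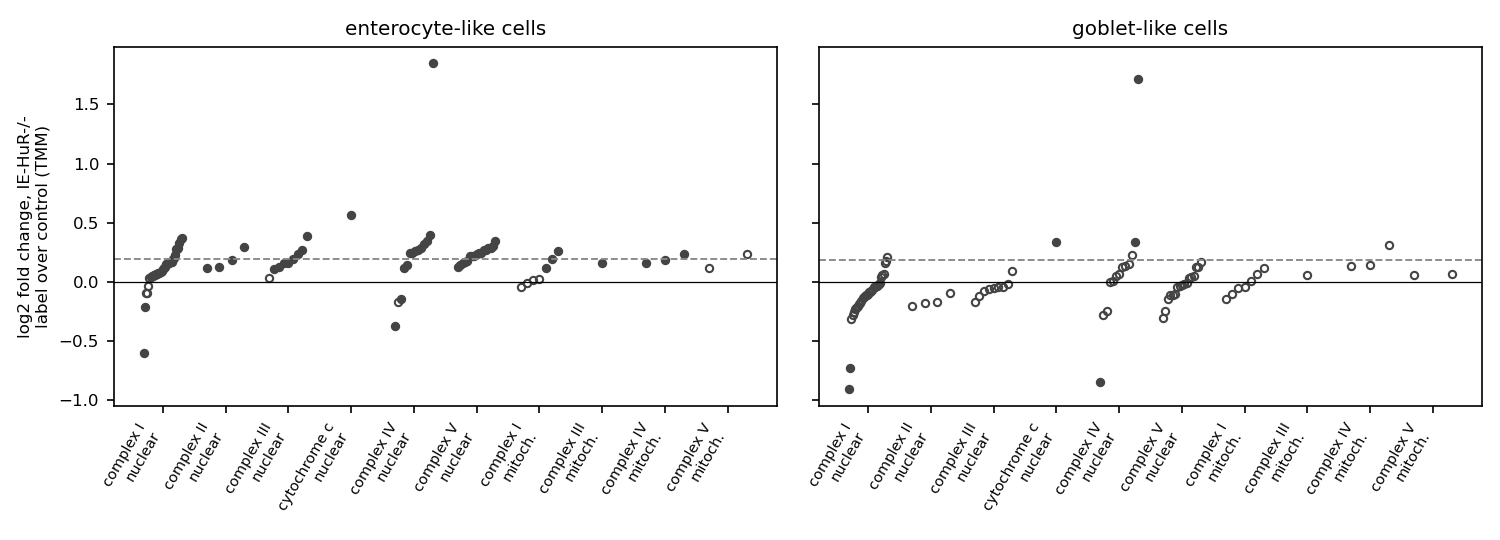
Log2 fold change of each tested member but Cox7a2l and Ndufb1-ps, libraries labelled IE-HuR-/- over control, by complex and genome in enterocyte-like (left) and goblet-like cells (right), TMM-scaled, filled points with edgeR adjusted p under 0.05 and open points not called. The dashed line shows where 0 lies if library totals replace TMM. Cox6b2 stays above it in both classes, and many enterocyte members that rose with TMM lie below it. Ndufs7, Ndufa4 and Ndufa5, below 0 with TMM, lie below it by construction.

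The members that fell were Ndufs7, Ndufa5, Ndufa4, Cox5b and Cox7a2l. Library totals lowered every log2 change of this fit alike, so their fall under that scaling was fixed in advance and adds no support. Ndufs7 (chr10:80249121-80256794 in GRCm38, plus strand), the subunit with the iron-sulfur cluster N2 next to the quinone site of complex I, had 114, 127 and 121 CPM in control libraries and 73.6, 84.7 and 80.0 in those labelled IE-HuR-/- (log2 change −0.60, SE 0.0492, edgeR adjusted p = 1.52e-11). Every control value was above every other. Ndufa4 (chr6:11900292-11907497), the subunit of complex IV once assigned to complex I, had 476, 513 and 518 CPM against 367, 405 and 394 (log2 change −0.37, SE 0.0446, edgeR adjusted p = 7.90e-09). Ndufa5 (chr6:24518666-24528013), an accessory subunit of the matrix arm of complex I, had 200, 211 and 215 against 175, 186 and 180 CPM (log2 change −0.21). Cox7a2l changed by −0.18 and Cox5b by −0.15, both with libraries that did not overlap. Other core subunits of complex I rose by small amounts with TMM. Ndufs8 had 57.2, 60.3 and 62.0 against 66.7, 75.6 and 75.2 CPM (log2 change 0.28), and Ndufv1, which holds the NADH site, 84.0, 91.7 and 93.9 against 108, 115 and 117 CPM (0.33). For Ndufs1, Ndufs3 and Ndufv2 the changes of 0.13 to 0.16 turned below 0 with library totals.

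The largest rise among members was that of Cox6b2 (chr7:4751792-4753094, minus strand), a form of subunit VIb known from testis. It had 20.9, 20.9 and 23.8 CPM in control libraries and 81.0, 80.7 and 73.5 in those labelled IE-HuR-/- (log2 change 1.85, SE 0.0526, edgeR adjusted p = 1.18e-23), and its share of the Cox6b1 and Cox6b2 UMIs went from 3.82%, 3.51% and 3.93% to 10.8%, 10.0% and 9.44%. Cox6b1, the general form, kept most of the family UMIs. Cycs (chr6:50562563-50566538, minus strand) had 600, 618 and 643 against 870, 960 and 919 CPM (log2 change 0.56, SE 0.0443, edgeR adjusted p = 2.56e-13), without overlap, and 0.37 with library totals. Cycs has processed copies elsewhere in the mouse genome, so its reads are uncertain where counting could split them. Next came Cox6a1 (483, 490 and 523 against 634, 682 and 651 CPM, log2 change 0.40), Uqcrc1, a core protein of complex III (247, 256 and 261 against 323, 339 and 338, log2 change 0.39), and Ndufs4 (91.1, 95.6 and 98.3 against 116, 128 and 123, log2 change 0.37). Cox7a1 rose by 0.34 on the log2 scale, from 190, 204 and 207 to 250, 259 and 253 CPM.

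**Figure D4:**
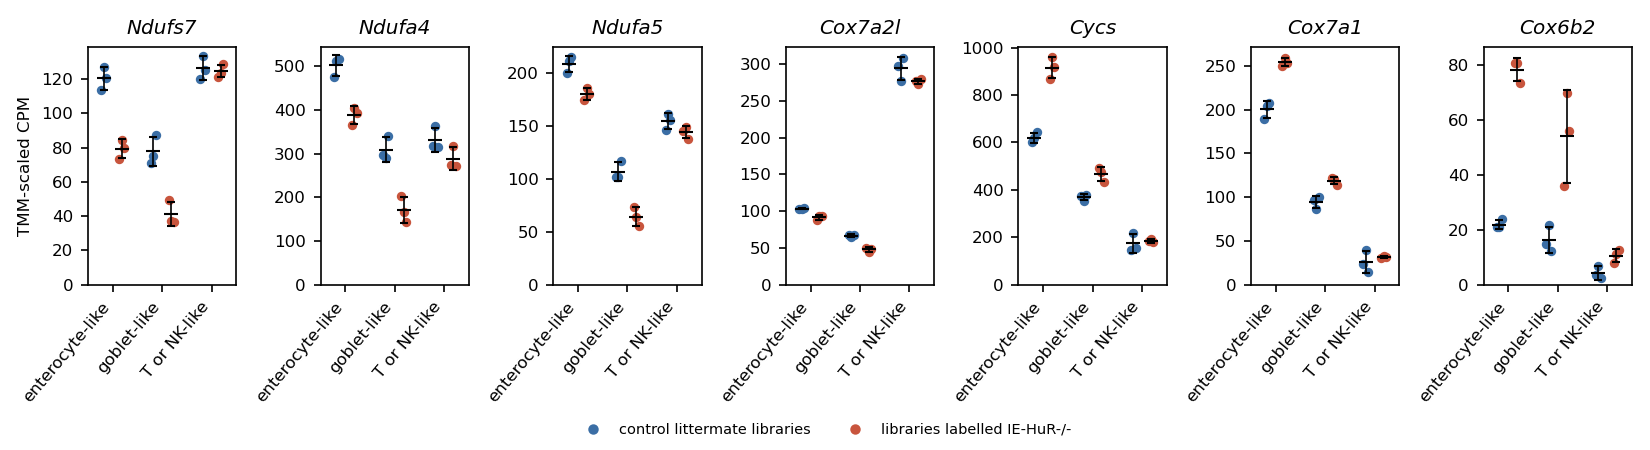
TMM-scaled CPM of 7 members in enterocyte-like, goblet-like and T or NK-like cells, with 1 point per library, blue for control littermates and red for libraries labelled IE-HuR-/-, and bars for mean ± SD (n = 3). In enterocyte-like and goblet-like cells the labels do not overlap for any of the 7, whereas for Ndufs7 in T or NK-like cells they run from 120 to 134 and from 122 to 129.

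Members of complex II and the catalytic subunits of complex V rose by less than the members with the largest rises, given above. Sdha, the flavoprotein of succinate dehydrogenase, changed by 0.12, Sdhb by 0.19, Sdhc by 0.30 and Sdhd by 0.13, and of these Sdha, Sdhb and Sdhd turned below 0 with library totals. Atp5a1 and Atp5b, the alpha and beta subunits of the catalytic head, changed by 0.29 and 0.27, from 526, 529 and 550 to 654, 645 and 663 CPM and from 865, 854 and 881 to 1014, 1056 and 1065 CPM. The gamma subunit Atp5c1 (0.17) and the c ring genes Atp5g1 (0.18), Atp5g2 (0.16) and Atp5g3 (0.13) were called higher with TMM and turned below 0 with library totals.

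Of the 13 mitochondrial genes, 7 were called higher and 0 lower in enterocyte-like cells with TMM, namely mt-Nd1, mt-Nd3, mt-Nd5, mt-Cytb, mt-Co1, mt-Co2 and mt-Co3, and 0 higher and 2 lower with library totals. Their median lay 0.17 above that of all genes, a difference that the choice of scaling cannot change. mt-Co1, the catalytic subunit of complex IV, had 26744, 27472 and 26218 CPM in control libraries and 34686, 29665 and 30139 in those labelled IE-HuR-/- (log2 change 0.23, SE 0.0576, edgeR adjusted p = 0.000747). mt-Nd2 (0.02) and mt-Nd4 (0.02) were not called. Without IE-HuR-/- library 1 or without library 3, 3 of the 13 were called higher. Within mitochondrial UMIs, complex IV took 52.5%, 52.9% and 52.2% in control libraries and 54.5%, 53.6% and 53.2% in the others, and complex I 20.6%, 19.4% and 19.6% against 18.9%, 19.2% and 19.2%, both without overlap. The transcripts mt-Atp8 with mt-Atp6, mt-Nd4l with mt-Nd4 and, on opposite strands, mt-Nd5 with mt-Nd6 overlap in the annotation, so that their division is uncertain.

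In goblet-like cells 3 of 81 nuclear members rose and 4 fell, where 14.6% of all genes rose and 12.4% fell, and the median of the set lay −0.03 from that of all genes. The 4 were among the 5 that fell in enterocyte-like cells. Ndufs7 had 71.0, 75.4 and 87.2 CPM against 49.4, 37.3 and 36.9 (log2 change −0.91, SE 0.127, edgeR adjusted p = 1.59e-05), Ndufa4 296, 291 and 342 against 203, 167 and 145 (−0.85, SE 0.119, edgeR adjusted p = 1.79e-05), Ndufa5 102, 101 and 117 against 73.3, 63.8 and 55.5 (−0.73), and Cox7a2l 67.6, 64.6 and 67.5 against 49.9, 44.5 and 49.2 (−0.47). None of these overlapped between labels. The 3 that rose were Cox6b2, with 14.7, 21.7 and 12.4 against 36.2, 70.0 and 56.1 CPM (log2 change 1.71, SE 0.296, edgeR adjusted p = 0.00532), Cycs, with 373, 354 and 380 against 490, 475 and 433 (0.34), and Cox7a1, with 96.4, 86.3 and 99.9 against 121, 120 and 114 (0.33). Each of these 3 calls was lost when 1 library was left out, that of Cox6b2 without IE-HuR-/- library 3, that of Cycs without control library 1 or 2 or IE-HuR-/- library 1, and that of Cox7a1 without control library 2 or IE-HuR-/- library 1. Library totals left Cox6b2 alone called higher and 29 members lower, where 7.92% of all genes were higher and 25.2% lower. Enterocyte markers in goblet-like cells moved with the label, at 5.24%, 5.33% and 5.40% of nuclear UMIs in control libraries and 4.04%, 4.49% and 3.26% in the others, and their part in these changes was not tested. edgeR called 0 of the 13 mitochondrial genes (1 at an unadjusted p under 0.05, and 1 called by DESeq2, mt-Co1 with 18153, 20128 and 17033 against 22674, 24671 and 21173 CPM). How the goblet-like changes differ from those in enterocyte-like cells was not tested.

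In the other classes edgeR and DESeq2 called no member between labels, where edgeR called 1.37% of all genes in tuft-like, 0.305% in enteroendocrine-like, 1.88% in T or NK-like and 0.423% in progenitor-like cells. At an unadjusted p under 0.05 stood 1 nuclear and 0 mitochondrial members in tuft-like, 3 and 0 in enteroendocrine-like, 5 and 1 in T or NK-like, and 8 and 8 in progenitor-like cells, of 80 or 81 nuclear and 13 mitochondrial members tested. The shares of all genes at that unadjusted threshold were 12.3%, 9.45%, 14.1% and 8.69%. In progenitor-like cells the pooled mitochondrial share was 9.55%, 10.7% and 8.62% in control libraries and 8.21%, 5.78% and 8.39% in those labelled IE-HuR-/-, without overlap. Pooling weights deep barcodes, and the median share per barcode overlapped, at 5.95%, 4.99% and 3.47% against 4.58%, 1.98% and 1.94%. The median change of the 13 genes was −0.41, but none passed the test with between 20 and 72 cells per library. Cycs in these cells had 304, 370 and 415 against 548, 599 and 415 CPM (log2 change 0.52, edgeR adjusted p = 0.498). In T or NK-like cells Ndufs7 had 120, 134 and 125 against 122, 124 and 129 CPM (log2 change −0.02). Cox6b2 there had 3.58, 6.96 and 2.32 against 7.93, 11.2 and 12.7 CPM (log2 change 1.27, edgeR adjusted p = 0.109), low levels beside an enterocyte marker share of 0.654% to 1.66%. Without control library 2, which has the highest such share, 9 members were called higher in T or NK-like cells, among them Cox6b2, Cycs, Cox7a1 and mt-Cytb. The share of all genes called in that fit was not counted, so whether these members stand out there is not known.

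The label difference in enterocyte-like cells was tested against that in T or NK-like cells of the same libraries as an interaction, where 3.87% of all 14380 genes were higher and 7.11% lower. Of 95 members, 1 was higher and 1 lower. Ndufs7 differed by −0.61 (SE 0.102, edgeR adjusted p = 0.00594) and Ndufs8 by 0.34 (SE 0.0867, edgeR adjusted p = 0.0354). The median of the nuclear members lay 0.16 above that of all genes. DESeq2 called 29 members higher and 1 lower, but its share of all genes was not counted, so no excess can be read from these counts. With library totals 0 were higher and 5 lower (2.01% and 15.3% of all genes), Ndufs7 among them at −0.80.

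Enterocyte-like barcodes were spread over a wide range of mitochondrial shares, so the label comparison was repeated within 4 ranges of the barcode's own share. The nuclear sum was 61572 to 69265 nuclear CPM below 2%, 28933 to 35236 between 2% and 10%, 29250 to 32889 between 10% and 25%, and 13872 to 17390 from 25%. Malat1, a long non-coding RNA retained in nuclei, moved the opposite way, at 1156 to 2262 nuclear CPM in the lowest range and 33818 to 50088 in the highest. It also moved with the label in the upper ranges, at 18576 to 20380 in control libraries against 20493 to 23549 in the others between 10% and 25%, and at 33818 to 41280 against 43691 to 50088 from 25%, without overlap, whereas the labels overlapped in the lower ranges. Its part in the sums and in the label differences was not tested. Barcodes below 2% were 23.7% to 29.2% of enterocyte-like barcodes in control libraries and 27.7% to 34.0% in the others. The nuclear sum overlapped between labels in each range. Complex I was lower without overlap under the IE-HuR-/- label below 2% (13364, 13585 and 14448 against 12653, 12386 and 12272 nuclear CPM) and between 10% and 25% (6859, 7290 and 7255 against 6007, 6251 and 6519). It overlapped elsewhere. Complexes II and III were also lower without overlap below 2%, and complexes II and V higher without overlap between 2% and 10%. Ndufs7, Ndufa4, Cycs and Cox6b2 did not overlap between labels in any of the 4 ranges. For Ndufs7 the values below 2% were 311, 344 and 349 nuclear CPM in control libraries and 181, 180 and 183 in those labelled IE-HuR-/-, and from 25% they were 78.5, 92.8 and 91.8 against 54.9, 60.2 and 53.2. Cox6b2 below 2% had 13.9, 13.9 and 14.8 against 76.0, 94.3 and 96.4. These 4 genes were already called over all enterocyte-like barcodes, so the ranges describe where the differences lie and are not further evidence for them.

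**Figure D5:**
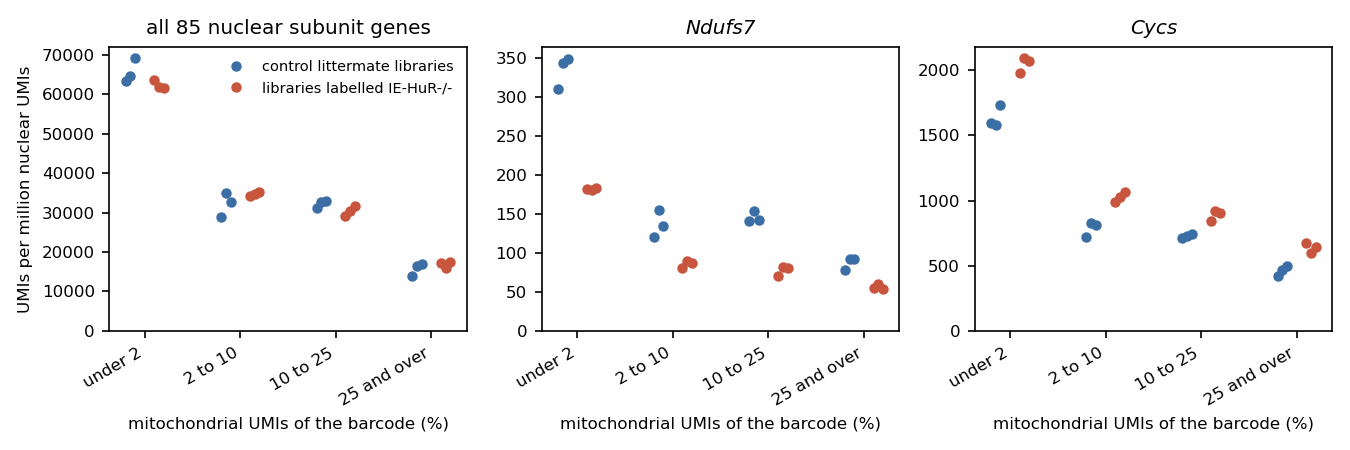
Nuclear CPM of the 85 summed nuclear genes, Ndufs7 and Cycs in enterocyte-like barcodes, by range of the barcode's mitochondrial share in percent, with 1 point per library, blue for control littermates and red for libraries labelled IE-HuR-/-. The nuclear sum falls from 61572 or more below 2% to 17390 or less from 25%, while Ndufs7 is lower and Cycs higher in every library labelled IE-HuR-/- within each range.

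Genes that build or serve the chain were counted in the same tests, in which 30.4% of all genes were higher and 30.6% lower in enterocyte-like cells and 14.6% and 12.4% in goblet-like cells. Of the assembly factors of complexes I to V, 13 of 47 were higher and 21 lower in enterocyte-like cells, with a log2 median −0.09 relative to all genes, and 0 higher and 7 lower of 40 in goblet-like cells, among them Surf1 and Cox20 of complex IV and Ecsit and Timmdc1 of complex I. Of the factors that copy, transcribe or regulate mitochondrial DNA, 6 of 20 were higher (Nrf1, Polg, Polg2, Slirp, Tfb2m and Yy1) and 5 lower (Tfam, Mterf4, Esrra, Ppargc1a and Ppargc1b) in enterocyte-like cells, and 0 of 18 were higher and 3 lower in goblet-like cells (Esrra, Ppargc1a and Ppargc1b, the last 2 being coactivators of mitochondrial biogenesis). In enterocyte-like cells the counts of higher genes in both lists lay near the share of all genes. Of the citric acid cycle enzymes, 8 of 13 were higher and 1 lower (Dlst) in enterocyte-like cells, and in goblet-like cells 2 were higher (Cs and Suclg2) and 2 lower (Dlst and Ogdh). Of 7 genes for mitochondrial chaperones (Hspa9 and Hspd1), prohibitins (Phb and Phb2) and porins of the outer membrane (Vdac1, Vdac2 and Vdac3), Hspa9, Phb2, Vdac2 and Vdac3 were higher in enterocyte-like cells. In goblet-like cells Vdac2 was higher and Hspa9 lower. With library totals the enterocyte counts became 4 higher and 31 lower for assembly factors, 2 and 8 for the mitochondrial DNA factors, 3 and 5 for the citric acid cycle, and 1 and 1 for the chaperones, prohibitins and porins. Of all genes, 15.7% were then higher and 50.2% lower. The goblet-like counts of these lists are given with TMM only.

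Across classes in control libraries, progenitor-like cells had 23 of 47 assembly factors and 9 of 21 mitochondrial DNA factors higher than enterocyte-like cells, with 12 and 5 lower, where 31.9% of all genes were higher and 36.9% lower. With library totals 32 and 15 were higher and 1 and 2 lower, where 48.5% of all genes were higher and 19.97% lower. The 9 included the transcription factors Tfam, Tfb1m and Tfb2m, the elongation factor Tefm, the helicase Twnk and the RNA-stabilising pair Lrpprc and Slirp. Their medians relative to all genes were 0.63 and 0.96 on the log2 scale, in the cells whose mitochondrially encoded RNA had a median of −1.53 relative to all genes. The mitochondrial chaperones Hspa9 and Hspd1 and the prohibitins Phb and Phb2 were also higher in progenitor-like cells. Citric acid cycle enzymes were lower for 13 of 13 in T or NK-like and enteroendocrine-like cells (42.8% and 41.6% of all genes) and for 12 of 13 in goblet-like and tuft-like cells (34.9% and 37.4% of all genes). With library totals 10 were lower in T or NK-like (and 2 higher), 10 in enteroendocrine-like, 11 in goblet-like and 5 in tuft-like cells (and 1 higher). The shares of all genes lower were then 27.8%, 14.95%, 18.6% and 7.63% in these classes, in that order. Those higher were 56.2% in T or NK-like and 31.0% in tuft-like cells.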

How the data were processed

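Mucosal cells of 3 control littermates and 3 IE-HuR-/- mice were profiled with 1 droplet library per animal. The deposited matrices hold unnormalized UMI counts that the authors made with Cell Ranger (mm10 per the labels), and no barcode in them has fewer than 500 UMIs. The reference (human in the methods, mouse in the files) and the kit (3′ in the methods, 5′ in the labels) are described differently by the sources, and whether strand was used in counting is not given in the sources used here.

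The members and lists were chosen with earlier results of these data known. Symbols were matched in Python 3.11.15, and coordinates were taken from GRCm38 (GENCODE). Barcodes with at least 200 genes were gated by fixed marker lists, with thresholds set after the data were seen (for enterocyte-like cells at least 4 markers, 3% of nuclear UMIs and 2000 nuclear UMIs). Thresholds for tuft-like and progenitor-like cells were lowered so that each library held at least 20. Barcodes passing several gates (84) were set aside, and no doublet caller was run. Counts were summed per library and class and compared with edgeR 4.0.16 in R 4.3.3 (TMM, minimum count 10 and total 15, robust quasi-likelihood fit over all genes, Benjamini-Hochberg adjusted p under 0.05), so that p-values measure the spread between libraries of different animals. No pair of libraries of a group agreed within sampling noise (chi-square of 11.5 to 35.6 for each degree of freedom). CPM were scaled by TMM and nuclear CPM by the UMIs of nuclear genes, and levels were not compared between genes. Named were the 13 mitochondrial genes, core nuclear subunits, tissue forms, and in each comparison the called members with the 5 strongest rises and 5 strongest falls.

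Alternatives were no TMM scaling, DESeq2 1.42.0, no filter on low counts, a stricter gate, at most 25% mitochondrial UMIs, at least 500 genes, nuclear genes only, Ndufa4 with complex I, counts thinned to the lowest class total, the replicate number as a block, and 1 library left out. The fits were tested on simulated counts before use. Paneth-like cells (80) were too few for a test, and the values of 1 named member are not reported here.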

Additional observations from a re-analysis of the deposited data

Results flagged for a closer look

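Members were flagged where the label difference itself differed between classes in the interaction test. For Ndufs7 the log2 change under the IE-HuR-/- label in enterocyte-like cells minus that in T or NK-like cells was −0.61 (SE 0.102, edgeR adjusted p = 0.00594). The own changes were −0.60 in enterocyte-like and −0.02 in T or NK-like cells, and the difference was not called without IE-HuR-/- library 1, at −0.59. For Ndufs8 the change was 0.34 higher in enterocyte-like cells (SE 0.0867, edgeR adjusted p = 0.0354), with own changes of 0.28 and −0.09. The call on Ndufs8 was lost with no filter on low counts, with the stricter gate, and without control library 1 or any 1 of the 3 IE-HuR-/- libraries. No explanation of either was tested. With 3 libraries per group, no test for a single outlying library was made.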

How the results depend on the processing

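Library totals in place of TMM moved most counts. Nuclear members called in enterocyte-like cells became 15 higher and 20 lower and mitochondrial members 0 higher and 2 lower, those in goblet-like cells 1 higher and 29 lower with 2 mitochondrial members lower, and the interaction 0 higher and 5 lower. Against enterocyte-like cells the nuclear counts became 23 higher and 2 lower in tuft-like (31.0% and 7.63% of all genes), 67 higher and 3 lower in progenitor-like (48.5% and 19.97%) and 9 higher in T or NK-like cells (56.2%). By construction it shifts every log2 change of a fit alike, and in enterocyte-like cells it reversed, among others, Sdha (−0.073), Sdhb (−0.0020), Sdhd (−0.061), Ndufs1 (−0.061), Ndufs3 (−0.033), Ndufv2 (−0.043), Uqcrfs1 (−0.028), Atp5c1 (−0.023), Atp5g1 (−0.011), Atp5g2 (−0.032), Atp5g3 (−0.060), mt-Nd5 (−0.073), mt-Cytb (−0.029), mt-Co2 (−0.029) and mt-Co3 (−0.0083), and in the enteroendocrine-like contrast Atp5g2 (0.33). The share of called genes that were higher went from 49.9% to 23.8% in enterocyte-like and from 53.9% to 23.9% in goblet-like cells. With library totals 15.7% of all genes were higher and 50.2% lower in enterocyte-like cells, and 7.92% and 25.2% in goblet-like cells.

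Other settings moved fewer results, and the cause was not tested. The stricter gate gave 5 nuclear members higher in goblet-like cells, 1 called in T or NK-like cells and 7 higher in the interaction. No filter on low counts gave 8 lower in goblet-like cells, 1 called in enteroendocrine-like and 3 in T or NK-like cells, and 0 higher in the interaction. DESeq2 called 29 higher in the interaction and 1 mitochondrial member higher in goblet-like cells. Shares of all genes were not counted under the stricter gate, without the filter or with DESeq2. Nuclear genes alone gave 16 lower in progenitor-like cells. At most 25% mitochondrial UMIs, which removes barcodes with a high share by construction, gave 2 called in progenitor-like cells, 1 mitochondrial member higher in goblet-like cells, mitochondrial shares of 12.1% in control and 12.1% in IE-HuR-/- enterocyte-like cells and 3.96% in IE-HuR-/- T or NK-like cells, and ratios to nuclear subunit UMIs of 3.84 and 3.88. The complex sums in nuclear CPM then were 7804 and 7229 for complex I, 1018 and 1004 for complex II, 4141 and 4008 for complex III, 10262 and 10250 for complex IV, and 11790 and 11986 for complex V. With Ndufa4 in complex I, complex I had 7899 and 7223 and complex IV 8803 and 9087.

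Leaving out 1 library gave 46 to 61 nuclear members higher and 5 to 7 lower in enterocyte-like cells, with 3 to 7 mitochondrial members higher (3 without IE-HuR-/- library 1 or 3) and 0 to 1 lower (without control library 3). Goblet-like cells gave 1 to 3 higher (1 without control library 2 or IE-HuR-/- library 1), 4 to 8 lower (8 without IE-HuR-/- library 1) and 0 to 1 mitochondrial member higher. Of the goblet-like genes, Cycs was lost without control library 1 or 2 or IE-HuR-/- library 1, Cox7a1 without control library 2 or IE-HuR-/- library 1, and Cox6b2 without IE-HuR-/- library 3. T or NK-like cells gave 0 to 9 (9 without control library 2), enteroendocrine-like 0 to 1 and progenitor-like cells 0 to 1, and the interaction 0 to 8 higher (0 without control library 1 or any IE-HuR-/- library, 8 without control library 3) and 0 to 1 lower. Against enterocyte-like cells 38 to 56 nuclear members were lower in tuft-like cells (38 without control library 1), 7 to 16 higher and 14 to 34 lower in progenitor-like cells (7 without control library 3, 14 without control library 1). Shares of all genes were not counted in the fits with 1 library left out. The replicate numbers did not pair libraries, with correlations of same-numbered deviations of −0.04, −0.18 and −0.05 in enterocyte-like cells. With the replicate block 60 nuclear members were higher and 7 lower and 8 mitochondrial members higher in enterocyte-like cells, 3 higher and 4 lower in goblet-like cells, and 0 called in the other 4 classes, so that it moved no count by over 1.5 times. Over all alternatives, values of single genes kept direction and side of the threshold 740 times, lost the threshold 74 times and reversed 17 times. Progenitor-like and tuft-like cells rest on as few as 20 and 22 cells in a library.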
